A study of Mus musculus with 12 samples.

Results

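The genes described here are 10 genes of the SMAD branch of TGFβ signalling: the transducers Smad3 and Smad4, the inhibitory SMADs Smad6 and Smad7, the ubiquitin ligases Smurf1 and Smurf2, the corepressors Ski and Skil, and the inhibitors Pmepa1 and Spsb1. They were listed by symbol with earlier results of these data known, and all 10 were found among the 40847 rows of the count table. RNA was sequenced from fetal liver alveolar-like macrophages (FLAMs), mouse macrophages grown from fetal liver with GM-CSF at 30 ng/ml in every group. The 4 groups of 3 libraries were untreated cells, cells with recombinant human TGFβ1 at 20 ng/ml (TGFβ), cells with the TLR2 ligand Pam3CSK4 at 25 ng/ml for 18 h (Pam3), and cells with both (Pam3+TGFβ). How long TGFβ was present, the genotype of the mice and how many animals or isolations lie behind the libraries were not given in the sources used here, so p-values measure only the spread between these libraries, which may be technical. The cultures are a model grown outside the lung, with neither the epithelium nor the other cells of an alveolus.

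TGFβ binds the type II receptor, which activates the type I receptor, which in turn phosphorylates SMAD2 and SMAD3. These join SMAD4, enter the nucleus and act on genes together with other transcription factors. Several genes switched on in this way encode inhibitors that act back on the receptors or on the SMADs, and TGFβ signalling is known to be needed for alveolar macrophages to develop and persist in the lung.

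The promoter windows of 3 members are shown first because they belong to the member that rose most with TGFβ (Spsb1), to one that fell (Smad3) and to one that rose and holds an uncommon SMAD-binding element (Smad6). Windows ran from 250 bases before to 50 bases after the RefSeq start site on GRCm38.p6, an older build than the GRCm39 the counts rest on. Of the 10 members, 6 had an entry (Ski, Smad3, Smad6, Smurf1, Smurf2, Spsb1). Pmepa1, Skil, Smad4 and Smad7 had none. The stretches lie at chr9:64022056-64022155 (Smad6, from 96 bases before to 4 bases after the start), chr4:149955007-149955256 (Spsb1, the 250 bases before the start) and chr9:63757995-63758244 (Smad3, the 250 bases before the start), each on the minus strand and printed 5′ to 3′ in the direction of the gene. Capitals mark matches on either strand to GTCTAGAC, the palindromic SMAD-binding element, and to GGCGC and GGCCG, GC-rich sequences that SMAD MH1 domains bind.
Smad6: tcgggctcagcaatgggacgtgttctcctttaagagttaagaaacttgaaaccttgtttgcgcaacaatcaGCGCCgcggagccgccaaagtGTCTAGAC
Spsb1: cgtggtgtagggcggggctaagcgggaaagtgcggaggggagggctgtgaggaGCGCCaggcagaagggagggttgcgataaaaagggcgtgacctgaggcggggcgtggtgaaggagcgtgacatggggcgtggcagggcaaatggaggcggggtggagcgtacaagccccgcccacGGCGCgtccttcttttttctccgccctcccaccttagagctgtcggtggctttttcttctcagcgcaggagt
Smad3: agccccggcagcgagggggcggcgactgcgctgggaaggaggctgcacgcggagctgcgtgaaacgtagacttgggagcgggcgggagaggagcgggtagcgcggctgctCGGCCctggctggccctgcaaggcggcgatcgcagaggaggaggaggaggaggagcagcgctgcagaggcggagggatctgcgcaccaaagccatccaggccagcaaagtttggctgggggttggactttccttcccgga

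The palindrome GTCTAGAC stood across the Smad6 start, from 4 bases before to 4 bases after it, and was in none of the other 5 windows. It was found in 0.213% of the 32851 windows in the table. CAGAC, the short SMAD box, was in the windows of Smurf1 and Smurf2 at 2 places each and in none of the other 4, against 49.6% of all windows. GGCGC (36.9% of all windows) was found at 7 places for Ski, 6 for Smurf2, 4 for Smurf1, 3 for Spsb1 and 2 for Smad6, and GGCCG (35.2%) at 13, 4, 3, 1 and 1 places. The Smad3 window held 1 GGCCG and no GGCGC. These windows were rich in G and C, from 66.3% for Smad6 and Spsb1 to 85.3% for Ski, against a median of 52.7% over all windows. The AP-1 element TGANTCA (7.81% of all windows) was in none of the 6, and the PU.1 core GAGGAA (28.3%) was in the Smurf2 window at 1 place. Matches were searched on both strands and each motif was counted by itself, although GGCGC and GGCCG can share bases. Matches to the same motif on opposite strands can share bases too, such as GGCCG for Ski at -118 and -117 from the start. The places can thus be more than the separate sites. A match is a string of letters, not a bound site.

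Library totals ran from 34036650 to 44374115 counts. Levels are given as CPM, the count of a gene scaled to the TMM-adjusted size of its library, and differences as log2 fold changes with their standard error (SE). Each adjusted p is the Benjamini-Hochberg value of edgeR's quasi-likelihood test over the 14749 tested genes, and a gene was called at an adjusted p under 0.05. All 10 members passed the filter on low counts. Smad3 reached the filter's level (0.271 CPM) in 6 libraries, those of the untreated and Pam3 groups, where it was higher, and Spsb1 in 11 of 12, all but untreated replicate 2. The 8 macrophage markers checked (among them Cd68, Adgre1 and Csf1r) were at 1 CPM or more in every library, and so were 6 of 7 alveolar macrophage markers. With TGFβ alone, 5 of those 7 rose (Siglecf, Pparg, Car4, Chil3 and Ear2, such as Ear2 from 654 ± 25.9 to 1490 ± 59.2 CPM, SD, n = 3) and 2 fell (Marco, which fell by 4.12 on the log2 scale, and Fabp4 from 31.1 ± 1.12 to 0.132 ± 0.0507 CPM). Of the 8 macrophage markers, 1 rose and 6 fell, among them Itgam from 1090 ± 49.6 to 38.8 ± 1.9 CPM. Of the markers of other cell types, Col1a2, Lum, Hbb-bs, Ttr, Mpo, Cd3e, Ncr1 and Mcpt4 had no count in any library, but others of the same lists did. The hepatocyte marker Afp was at 5.63 to 10.1 CPM in every library, not called for TGFβ alone (0.03, adjusted p 0.848) and higher with TGFβ when Pam3 was present (0.40, adjusted p 0.00641), and Alb had counts only in replicate 3 of the TGFβ and Pam3+TGFβ groups. The 6 fibroblast markers summed to 0.529 to 1.55 CPM, mostly Pdgfra and Pdgfrb, neither of them called for TGFβ, and the erythroid and lymphocyte lists to at most 0.372 and 0.288 CPM. The share of reads on 8 rows of ribosomal RNA ranged from 0.195% to 8.22% and was 5% or more in untreated replicate 3, TGFβ replicates 1 and 3 and Pam3 replicates 2 and 3. With that share as a covariate, 1 member call was lost, that of Smad3 for Pam3 with TGFβ.

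With TGFβ, 7 of the 10 genes rose and 2 fell relative to untreated cells. Of all tested genes, 22.9% were called higher and 28.1% lower in this comparison. Those that rose were the inhibitors Smad6, Smad7, Smurf2, Ski, Skil, Pmepa1 and Spsb1, and those that fell were Smad3 and Smurf1. Smad4 was not called. The median log2 fold change of the 10 genes was 1.22, beside -0.008 over all tested genes. Since the genes were chosen with earlier results known, these counts and medians describe the 10 genes only. In the presence of Pam3, TGFβ raised the same 7 genes and lowered Smad3, Smurf1 and Smad4, where 21.5% of all tested genes were called higher and 23.8% lower. The median of the 10 was then 1.07, beside -0.002 over all tested genes. The 2 comparisons use different libraries but share 1 estimate of the spread.

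**Figure D1:**
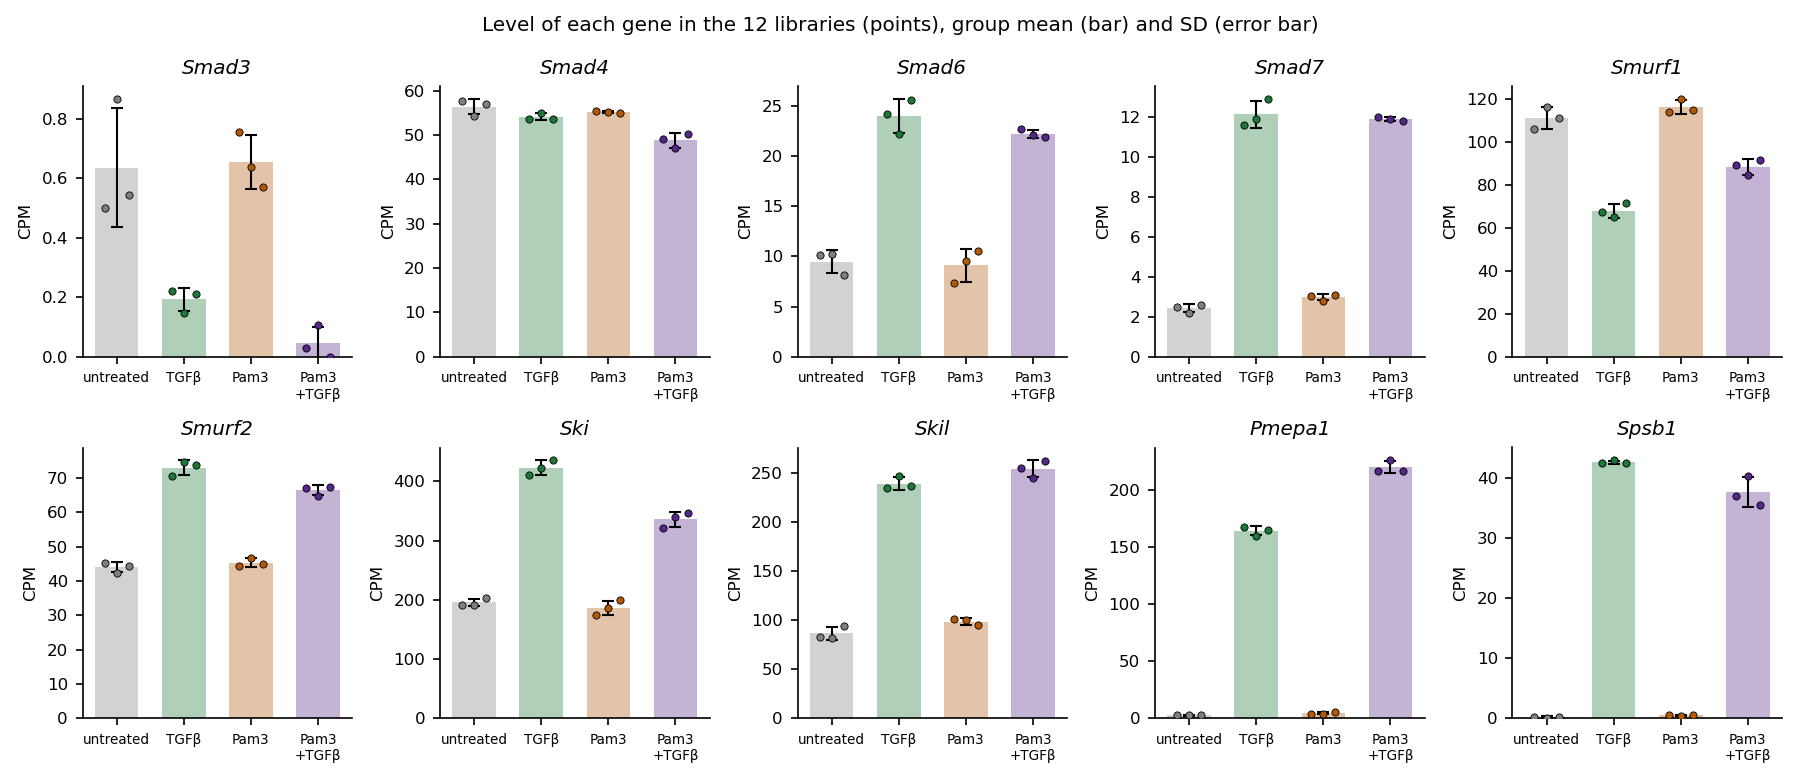
Level of each of the 10 genes in CPM (vertical axes, linear from 0 and scaled per gene) in untreated, TGFβ, Pam3 and Pam3+TGFβ cells. Points are the 3 libraries of a group, bars the mean and error bars the SD. Spsb1 stood at 42.7 CPM with TGFβ and 0.232 without, Pmepa1 at 164 and 2.8, and Smad3 at 0.193 and 0.636.

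Among the transducers, Smad3, a SMAD that the TGFβ type I receptor phosphorylates, was scarce in these cells and fell with TGFβ. It had 19, 36 and 19 counts in the untreated libraries and 8, 6 and 8 with TGFβ, that is 0.636 ± 0.201 and 0.193 ± 0.0393 CPM (SD, n = 3). With Pam3 the counts were 29, 24 and 18, and with Pam3+TGFβ they were 1, 4 and 0. Each library with TGFβ lay below each library without it. In bulk RNA, fewer cells that express a gene and less RNA per cell cannot be told apart.

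The fitted fall was -1.71 (SE 0.61, adjusted p 0.0218) without Pam3 and -3.81 (SE 0.75, adjusted p 0.000144) with it. Summed over a group, the ratio of untreated to TGFβ counts was 3.37 (exact 95% interval of counting error alone, 2.07 to 5.7), and that of Pam3 to Pam3+TGFβ counts was 15.3 (6.26 to 48.6). The call without Pam3 was lost without untreated replicate 2 (-1.42, adjusted p 0.109) and without TGFβ replicates 1 (-1.79, 0.056), 2 (-1.53, 0.0912) or 3 (-1.75, 0.0599). The adjusted p ranged from 0.0132 to 0.109 over all alternatives. With Pam3 the call held in all 22 alternatives, but its size moved to -5.34 without Pam3+TGFβ replicate 2 and to -3.18 without replicate 3 of that group. Counts this low allow no finer statement about Smad3.

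Markers of other cell types also moved with TGFβ. The summed level of the 3 mast cell markers ranged from 0.263 to 1.11 CPM in untreated libraries, from 0 to 0.0741 with TGFβ, from 0.265 to 0.667 with Pam3 and from 0 to 0.203 with Pam3+TGFβ, and 2 of the 3 had any count, with Mcpt4 at 0 throughout and Kit at 0 in every untreated, TGFβ and Pam3 library. The 4 neutrophil precursor markers summed to 12.6 to 15.5 CPM without TGFβ and 2.49 to 4.42 with it, nearly all of it S100a8, with Mpo at 0. The 4 dendritic cell markers summed to 3.88 to 5.62 CPM without and 1.23 to 2.53 with TGFβ, most of it Zbtb46, which fell from 4.64 ± 0.446 to 1.42 ± 0.45 CPM with TGFβ alone, while Flt3 had a count in 1 library only. Among the 4 endothelial markers, 2 at levels near that of Smad3 fell with TGFβ alone, Cdh5 from 0.888 ± 0.145 to 0.0514 ± 0.0495 CPM (-4.01, adjusted p 2.96e-05) and Kdr from 0.865 ± 0.227 to 0.082 ± 0.121 CPM (-3.39, adjusted p 0.000469). Pecam1 rose from 0.895 ± 0.338 to 2.46 ± 0.139 CPM (1.45, adjusted p 0.000285), and the sum of the 4 ranged from 2.05 to 4.0 CPM without and from 2.41 to 3.96 CPM with TGFβ. With Pam3 present, Cdh5 fell (-2.56, adjusted p 0.00146) and Kdr was not called (-0.83, adjusted p 0.286). The part of such cells in the Smad3 result was not tested.

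Smad4, the partner that SMAD2 and SMAD3 share, had a nearly level expression. Untreated cells had 56.4 ± 1.73 CPM, TGFβ cells 54.1 ± 0.761, Pam3 cells 55.1 ± 0.238 and Pam3+TGFβ cells 48.8 ± 1.66 (mean ± SD, n = 3). The Pam3+TGFβ libraries lay below all others, whereas the untreated and TGFβ libraries overlapped. The TGFβ effect was -0.06 (SE 0.0552, adjusted p 0.394) without Pam3 and -0.17 (SE 0.0555, adjusted p 0.0119) with it. The call with Pam3 was lost without Pam3+TGFβ replicate 2 (-0.14, adjusted p 0.0687) and with no filter on low counts (-0.16, adjusted p 0.0598), with adjusted p from 0.0064 to 0.0687 over all alternatives. The difference between both effects was -0.12 (SE 0.0783, adjusted p 0.386).

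Per kilobase of exon, the transducers differed widely in level. In untreated cells Smad4 stood at 7.77 ± 0.239 CPM per kilobase and Smad2, the other SMAD phosphorylated by the TGFβ receptor, at 7.58 ± 0.132, a gap within their spread. Smad3 stood at 0.11 ± 0.0346 CPM per kilobase, below Smad5 (4.41 ± 0.607) and Smad1 (2.32 ± 0.223), which BMP receptors phosphorylate, and above Smad9 (0.0436 ± 0.0112), the other SMAD of that branch. With TGFβ, Smad2 stood at 6.69 ± 0.297 and Smad3 at 0.0333 ± 0.00679. The Smad2 effect of TGFβ was -0.18 (SE 0.0539, adjusted p 0.00684), a call lost without untreated replicate 1 (-0.14, adjusted p 0.0554) or TGFβ replicate 3 (-0.12, adjusted p 0.0935).

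**Figure D2:**
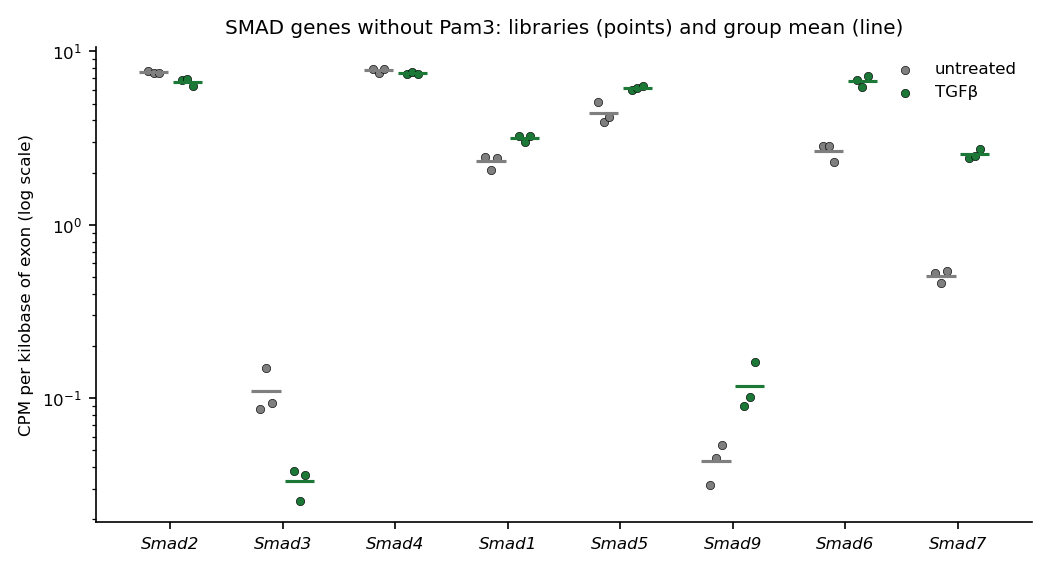
Level of the 8 SMAD genes in CPM per kilobase of exon (vertical axis, log scale) in untreated and TGFβ libraries without Pam3. Points are libraries and lines group means. Smad3 and Smad9 lay below 0.2 CPM per kilobase, and Smad6 and Smad7 lay higher with TGFβ than without.

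The inhibitory SMADs both rose. Smad7, which binds activated type I receptors and brings SMURF ligases to them, measured 2.5, 2.19 and 2.57 CPM in untreated libraries and 11.6, 11.9 and 12.9 with TGFβ. With Pam3 it measured 3.02, 2.81 and 3.11 CPM, and with Pam3+TGFβ 12, 11.9 and 11.8. All 6 libraries with TGFβ lay above all 6 without it, and the 3 Pam3 libraries lay above the 3 untreated ones. The TGFβ effect was 2.33 (SE 0.12, adjusted p 1.68e-14) without Pam3 and 1.99 (SE 0.12, adjusted p 3.11e-13) with Pam3, whose difference of -0.33 had an SE of 0.17 (adjusted p 0.224).

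Smad6, known above all as an inhibitor of BMP receptor signalling, measured 10.1, 10.2 and 8.16 CPM in untreated libraries and 24.2, 22.2 and 25.6 with TGFβ. With Pam3 it measured 7.31, 9.56 and 10.5 CPM, and with Pam3+TGFβ 22.7, 22.1 and 21.9. The libraries with TGFβ were again all higher, while those with and without Pam3 overlapped. The effect was 1.34 (SE 0.11, adjusted p 1.51e-10) without Pam3 and 1.29 (SE 0.11, adjusted p 4.68e-10) with it. Both rises of Smad6 and of Smad7 kept their call in all 23 alternatives. Smad6 and Smad3 lie close together in GRCm39, Smad3 at chromosome 9, 63554049 to 63665476, and Smad6 at 63860341 to 63929793, both on the minus strand.

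Smad7 rose relative to Smad6. Per kilobase of exon, the ratio of Smad7 to Smad6 went from 0.194 ± 0.0378 without treatment to 0.378 ± 0.0208 under TGFβ, and from 0.25 ± 0.0509 under Pam3 to 0.4 ± 0.00423 under both (mean ± SD of 3 libraries, no test). Smad6 was the more abundant of the pair in each group.

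The SMURF ligases, HECT-type ubiquitin ligases that mark SMADs and TGFβ receptors for degradation, moved in opposite directions. Smurf1 measured 106, 116 and 111 CPM in untreated libraries and 67.6, 64.9 and 71.5 with TGFβ, and 114, 120 and 115 with Pam3 against 89.1, 84.4 and 91.8 with Pam3+TGFβ. Smurf2 measured 45.3, 42.4 and 44.4 CPM in untreated libraries and 70.7, 74.7 and 73.7 with TGFβ, and 44.3, 46.8 and 45.0 with Pam3 against 67.2, 64.8 and 67.5 with Pam3+TGFβ. For Smurf1 every library with TGFβ was below every library without it, and for Smurf2 every one was above.

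The TGFβ effect on Smurf1 was -0.70 in log2 units (SE 0.0545, adjusted p 3.93e-11) without Pam3 and -0.39 (SE 0.0541, adjusted p 1.24e-06) in its presence. That on Smurf2 was 0.73 (SE 0.0559, adjusted p 3.17e-11) without Pam3 and 0.55 (SE 0.056, adjusted p 7.35e-09) in its presence. The ratio of Smurf1 to Smurf2 per kilobase went from 3.36 ± 0.259 without treatment to 1.24 ± 0.0728 under TGFβ, and from 3.41 ± 0.0154 under Pam3 to 1.77 ± 0.0381 under both (mean ± SD of 3 libraries, no test). Of the exon bases of Smurf2 (chromosome 11, 106710889 to 106811583, minus strand), 10.0% are shared with Cep95 on the opposite strand and 1.1% with the miRNA gene Gm56268 on the same strand. Whether counting used strand was not given in the sources used here, so reads of Smurf2 and Cep95 in that stretch cannot be told apart.

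**Figure D3:**
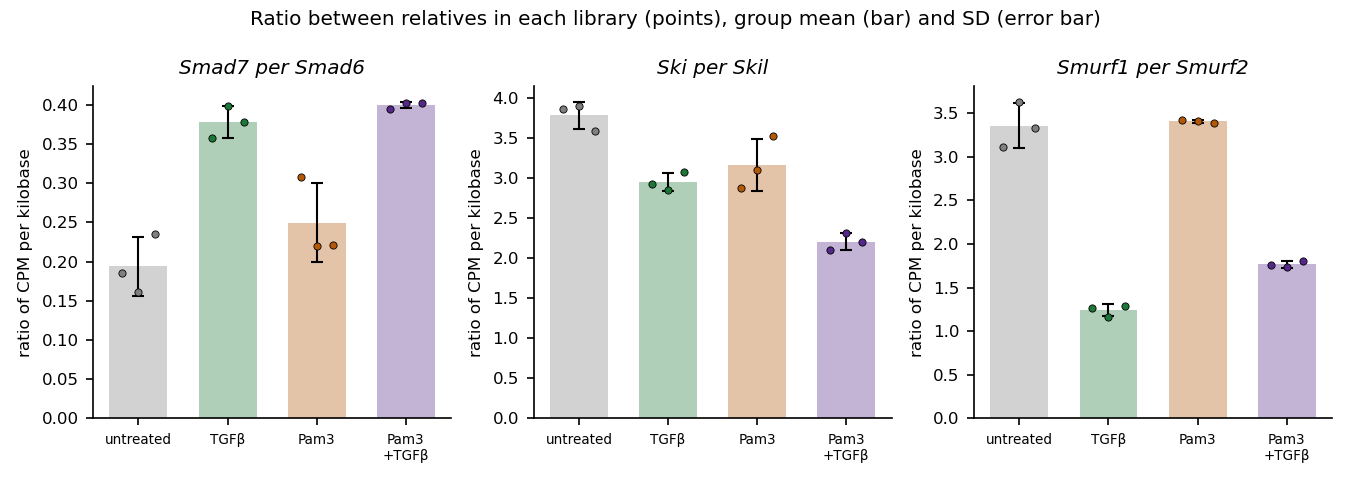
Ratio between 2 relatives in CPM per kilobase of exon (vertical axes, linear from 0) by group, for Smad7 per Smad6, Ski per Skil and Smurf1 per Smurf2. Points are libraries, bars means and error bars the SD. Smurf1 per Smurf2 lay at 3.36 in untreated cells and 1.24 with TGFβ, and Smad7 per Smad6 at 0.194 and 0.378.

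The corepressors both rose. Ski, which binds SMAD2, SMAD3 and SMAD4 and keeps target genes off through histone deacetylases, measured 192, 192 and 203 CPM in untreated libraries and 410, 423 and 435 with TGFβ. With Pam3 it measured 175, 186 and 199 CPM, and with Pam3+TGFβ 321, 340 and 346. The levels fell into 3 steps that did not overlap: the 6 libraries without TGFβ, then Pam3+TGFβ, then TGFβ alone. The TGFβ effect on Ski was 1.11 (SE 0.0476, adjusted p 3.04e-16) without Pam3 and 0.85 (SE 0.0475, adjusted p 8.97e-14) with it.

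Skil, which encodes SnoN, a relative of SKI with the same partners, measured 82.7, 82.2 and 94.2 CPM in untreated libraries and 234, 247 and 236 with TGFβ. With Pam3 it measured 101, 99.8 and 94.5 CPM, and with Pam3+TGFβ 255, 245 and 262. The libraries with TGFβ lay above all others, and TGFβ and Pam3+TGFβ overlapped. The effect was 1.47 (SE 0.0526, adjusted p 7.37e-18) without Pam3 and 1.36 (SE 0.0524, adjusted p 3.99e-17) with it. Ski was the more abundant per kilobase, with a ratio to Skil that went from 3.79 ± 0.169 without treatment to 2.95 ± 0.112 under TGFβ, and from 3.17 ± 0.322 under Pam3 to 2.21 ± 0.11 under both (mean ± SD of 3 libraries, no test). Ski lies on chromosome 4 (155238532 to 155307543, minus strand) and Skil on chromosome 3 (31148816 to 31176740, plus strand).

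Pmepa1 and Spsb1 went from low or near-absent levels to high ones. Pmepa1, a membrane protein that sequesters SMAD2 and SMAD3 away from the receptor, measured 2.68, 2.48 and 3.25 CPM in untreated libraries and 168, 160 and 165 with TGFβ. With Pam3 it measured 4.08, 3.61 and 5.69 CPM, and with Pam3+TGFβ 217, 226 and 217. Each group stood apart from every other. The effect was 5.88 (SE 0.11, adjusted p 1.8e-18), 58.8-fold, without Pam3 and 5.64 (SE 0.11, adjusted p 2.38e-18), 49.8-fold, with it. Per kilobase of exon, Pmepa1 (chromosome 2, 173066251 to 173118444, minus strand) went from 0.376 ± 0.0537 to 22.0 ± 0.512 CPM, from below Smad7 (0.509 ± 0.0423) to just below Skil (23.7 ± 0.713).

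Spsb1 encodes a SOCS-box protein, the substrate-binding part of a cullin-based ubiquitin ligase that is described as turning over the TGFβ type II receptor. It had 11, 5 and 10 counts in the untreated libraries (0.289, 0.12 and 0.285 CPM) and 42.5, 43.0 and 42.5 CPM with TGFβ. With Pam3 it had 24, 17 and 17 counts (0.624, 0.451 and 0.54 CPM), and with Pam3+TGFβ 37.1, 40.4 and 35.6 CPM. These 4 groups did not overlap, and TGFβ gave the highest level, then Pam3+TGFβ, Pam3 and untreated.

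The effect of TGFβ on Spsb1 was 7.53 (SE 0.15, adjusted p 7.11e-23) without Pam3 and 6.12 (SE 0.14, adjusted p 6.76e-22) with it. In summed counts this was 188-fold (exact 95% interval of counting error alone, 128 to 288) and 69.7-fold (53.8 to 91.9). Of the exon bases of Spsb1 (chromosome 4, 149866034 to 150039500, minus strand), 2.0% are shared with the lncRNA Gm13070 on the opposite strand.

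**Figure D4:**
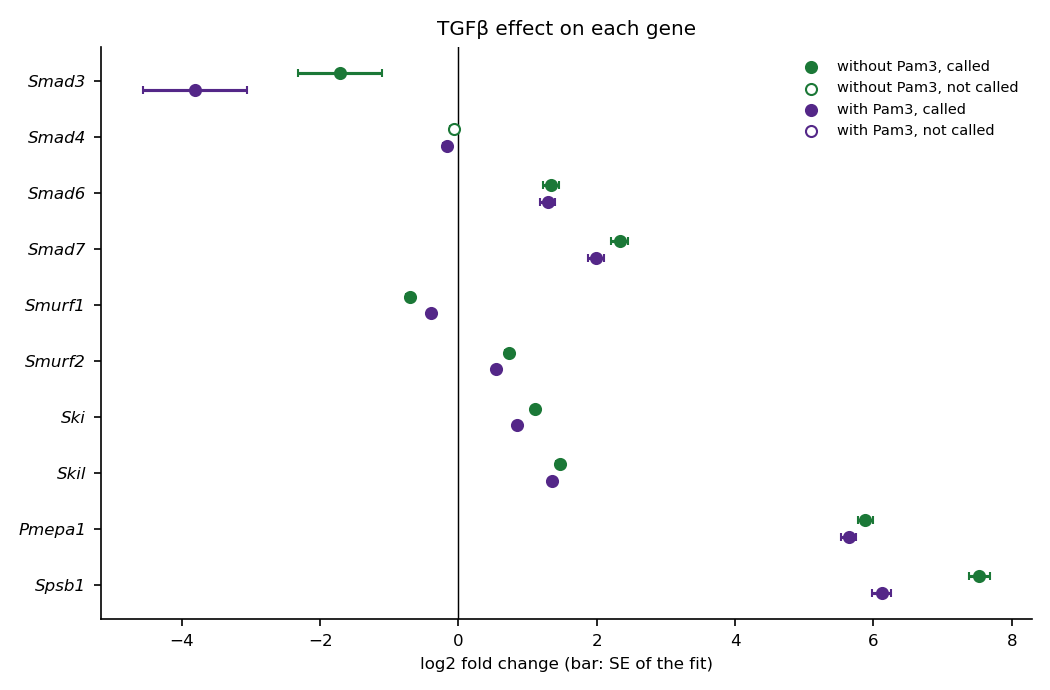
TGFβ effect on each of the 10 genes as a log2 fold change (horizontal axis, bars are the SE of the fit), without Pam3 (TGFβ against untreated) and with Pam3 (Pam3+TGFβ against Pam3). Filled points were called at an adjusted p under 0.05. Only Smad4 without Pam3 is an open point, at -0.06, and Spsb1 is farthest to the right at 7.53 and 6.12.

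With Pam3 alone, edgeR called 3 of the 10 genes higher and 0 lower, where 9.62% of all tested genes were called higher and 8.66% lower. The count of lower genes was also 0 at an unadjusted p under 0.05 and with DESeq2. The 3 were Spsb1, at 1.24 (SE 0.29, adjusted p 0.00263), Pmepa1, at 0.66 (SE 0.13, adjusted p 0.00147), and Skil, at 0.19 (SE 0.0522, adjusted p 0.011). In summed counts the Spsb1 ratio of Pam3 to untreated was 2.38 (exact 95% interval of counting error alone, 1.47 to 3.93). The Spsb1 call was lost without untreated replicate 2, the library with 5 counts (0.90, adjusted p 0.0531), and in the fit of the 6 libraries compared (1.22, adjusted p 0.159), with adjusted p from 0.00206 to 0.159 over all alternatives. The Skil call was lost without untreated replicate 1 (0.16, adjusted p 0.0663), without Pam3 replicate 1 (0.17, adjusted p 0.0602) and in the 6-library fit (0.19, adjusted p 0.0506), with adjusted p from 0.000612 to 0.0663. That of Pmepa1 held in all 23 alternatives. Smad7 stood 0.30 higher in log2 units (SE 0.14, adjusted p 0.133), and the other 6 ranged from -0.07 for Ski to 0.07 for Smurf1.

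In cells with TGFβ, Pam3 raised 2 of the 10 genes and lowered 3, at 20.4% of all tested genes called higher and 18.1% lower. Pmepa1 rose by 0.42 (SE 0.0811, adjusted p 0.000353) and Smurf1 by 0.38 (SE 0.0545, adjusted p 3.14e-06), while Ski changed by -0.33 (SE 0.047, adjusted p 2.42e-06). Smad3 had a change of -2.06 (SE 0.81, adjusted p 0.0469) and Smad4 one of -0.15 (SE 0.0554, adjusted p 0.0366). The Smad3 call was lost in 14 of 21 alternatives, with adjusted p from 0.0107 to 0.187. Among them were 11 of the 12 in which 1 library was left out, from -2.23 without TGFβ replicate 2 to -1.45 without Pam3+TGFβ replicate 3. It was kept without Pam3+TGFβ replicate 2, at -3.61. The Smad4 call was lost in 6 of 23, with adjusted p from 0.00316 to 0.146: with no filter on low counts, and without untreated replicate 3, TGFβ replicate 2, Pam3 replicates 1 or 2, or Pam3+TGFβ replicate 2, at -0.15 to -0.14.

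The other 5 genes were not called for Pam3 with TGFβ. Smurf2 had a value of -0.14 (SE 0.0552, adjusted p 0.055) and passed the threshold in 7 of 23 alternatives, among them without untreated replicates 1 (-0.15, 0.0331) or 2 (-0.13, 0.0434) and without TGFβ replicate 1 (-0.18, 0.0308). Spsb1 had -0.18 (SE 0.0839, adjusted p 0.0962) and passed it in 3 of 22, among them without Pam3+TGFβ replicate 2 (-0.25, 0.0454). Skil had 0.09 (adjusted p 0.205), Smad6 -0.11 (adjusted p 0.445) and Smad7 -0.03 (adjusted p 0.862).

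**Figure D5:**
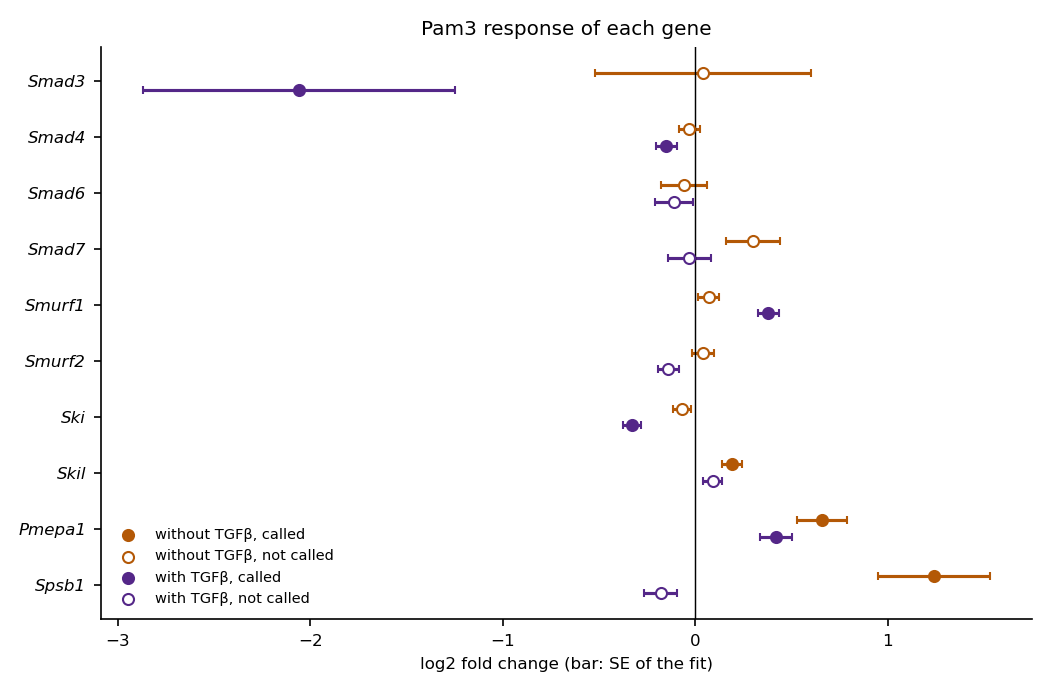
Pam3 response of each of the 10 genes as a log2 fold change (horizontal axis, bars are the SE of the fit), without TGFβ (Pam3 against untreated) and with TGFβ (Pam3+TGFβ against TGFβ). Filled points were called at an adjusted p under 0.05. Smurf1 is at 0.07 without and 0.38 with TGFβ, Ski at -0.07 and -0.33, and Smad3 has the widest bars.

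The interaction, which is the amount by which the Pam3 response changed when TGFβ was present, was called for 3 of the 10 genes. It was higher for Smurf1, at 0.31 (SE 0.0766, adjusted p 0.00498), and lower for Ski, at -0.26 (SE 0.0667, adjusted p 0.00642), and Spsb1, at -1.42 (SE 0.3, adjusted p 0.00117). Of all tested genes, 10.3% had a higher and 5.67% a lower interaction. For Smurf1, Ski and Spsb1 the TGFβ effect was smaller in size with Pam3 present. These 3 calls held in every alternative that gave a value (22, 22 and 21). That of Spsb1 rests on few counts without TGFβ, 26 summed over the untreated libraries and 58 over the Pam3 libraries. With TGFβ present, the Pam3 response of Spsb1 was not called (-0.18, SE 0.0839, adjusted p 0.0962). For Smad3 the interaction was -2.10 (SE 0.98, adjusted p 0.171) and was called without Pam3+TGFβ replicate 2 (-3.65, adjusted p 0.0472, range 0.0472 to 0.381 over 21 alternatives). The other 6 ranged from -0.33 for Smad7 to -0.05 for Smad6, and none was called.

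Other genes of the pathway were counted in 7 lists of 92 genes, of which 85 were tested. With TGFβ alone, 24 of these were called higher (28.2%, beside 22.9% of all tested genes) and 29 lower (34.1%, beside 28.1%), so the counts by list that follow are to be read against those shares. Among other receptors and SMADs, 7 of 16 rose and 5 fell, with a median log2 fold change of 0.12. Tgfbr1, the type I receptor, rose from 179 ± 19.9 to 637 ± 26.3 CPM (1.83, SE 0.0719, adjusted p 2.02e-14), and Tgfbr2, the type II receptor, fell from 467 ± 16.6 to 297 ± 1.67 CPM (-0.65, SE 0.0421, adjusted p 1.2e-12). Per kilobase, Tgfbr1 went from 27.0 ± 3.01 to 96.2 ± 3.96 CPM and Tgfbr2 from 53.1 ± 1.89 to 33.8 ± 0.19, so their order switched. Acvrl1, the type I receptor ALK1, fell (-1.26, adjusted p 7.35e-14) and Acvr2b, an activin type II receptor, rose (0.76, adjusted p 1.67e-05). The coreceptor Eng fell from 43, 70 and 42 counts to 2, 0 and 2, a ratio of 38.8 in summed counts (exact 95% interval of counting error alone, 14.9 to 144).

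Of 18 other negative regulators, 3 rose and 8 fell with TGFβ alone, with a median log2 fold change of -0.09. The 3 that rose were Tgif2, a homeodomain corepressor of SMADs, from 1.22 ± 0.196 to 8.96 ± 0.838 CPM (2.87, SE 0.17, adjusted p 2.81e-13), the pseudoreceptor Bambi (1.35, SE 0.14, adjusted p 1.6e-08), and Ldlrad4, a relative of Pmepa1 (1.09, SE 0.0835, adjusted p 3.07e-11). Of 11 positive regulators 0 rose and 2 fell, with a median of -0.11: the deubiquitinase Usp15 (-0.20, adjusted p 0.00287), a call lost without TGFβ replicate 3 (-0.14, adjusted p 0.0526), and the adaptor Dab2 (-0.19, adjusted p 0.00227). No positive regulator rose at an unadjusted p under 0.05 or with DESeq2 either (0 and 0 of 11), but with no filter on low counts 1 was called higher and 4 lower. Of 8 partners of the SKI corepressor complex, 6 rose and 0 fell, the latter also 0 at an unadjusted p under 0.05 and with DESeq2, with a median of 0.25. They included the deacetylase Hdac2 (0.27, adjusted p 0.000748), the scaffold Sin3a (0.26, adjusted p 0.000461) and the kinase Hipk2 (0.42, adjusted p 0.0296), from 348, 237 and 357 CPM in the untreated libraries to 387, 423 and 453. The Hipk2 call was lost without TGFβ replicates 2 (0.44, adjusted p 0.0693) or 3 (0.39, adjusted p 0.0859), in the fit of the 6 libraries compared (adjusted p 0.106), with no filter (0.0527) and with the ribosomal RNA share as a covariate (0.0502). Without untreated replicate 2, its lowest library, it held at a smaller size (0.26, adjusted p 0.000261). Of 7 genes of the cullin 5 ligase and the other SPSB genes, 0 rose (1 at an unadjusted p under 0.05 and 0 with DESeq2) and 2 fell, with a median of -0.13, both relatives of Spsb1: Spsb4 (-2.52, SE 0.25, adjusted p 5.63e-09) and Spsb2 (-0.40, SE 0.1, adjusted p 0.00226).

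DNA-binding partners and textbook targets went both ways. Of 11 tested partners, 2 rose and 6 fell with TGFβ alone, with a median log2 fold change of -0.31. Atf3 fell from 87.5 ± 5.16 to 10.0 ± 0.514 CPM (-3.12, SE 0.0927, adjusted p 1.18e-17) and Runx2 rose (0.94, SE 0.0662, adjusted p 7.36e-12). Runx3, a scarce gene, fell from 1.24 ± 0.0346 to 0.152 ± 0.109 CPM (-3.02, SE 0.51, adjusted p 1.86e-05). Its mean with TGFβ lay below the filter's level of 0.271 CPM. Of 20 genes widely described as TGFβ targets in other cells, 14 were tested, and 6 rose and 6 fell, with a median of 0.02. The matrix protein Tgfbi rose from 675 ± 37.3 to 2550 ± 39.1 CPM (1.92, SE 0.0535, adjusted p 4.54e-20). Cdkn1a, the cell cycle inhibitor p21, fell from 222 ± 13.7 to 59.0 ± 2.46 CPM (-1.91, SE 0.054, adjusted p 5.67e-20). Ccn1, Ccn2, Snai1, Snai2, Hmga2 and Col1a1 were not tested, and Ccn2 had no count in any library.

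With Pam3 present, the TGFβ effect called 26 of the 85 genes higher (30.6%, beside 21.5% of all tested genes) and 24 lower (28.2%, beside 23.8%). By list, higher and lower were 7 and 5 of 16 other receptors and SMADs, 5 and 6 of 18 other negative regulators, 0 and 1 of 11 positive regulators, 4 and 3 of 11 DNA-binding partners, 6 and 6 of 14 targets, 4 and 1 of 8 SKI partners, and 0 and 2 of 7 genes of the SPSB1 ligase list. Pam3 alone called 8 of the 85 higher (9.41%) and 9 lower (10.6%), near the 9.62% and 8.66% of all tested genes. Pam3 with TGFβ called 30 higher (35.3%, beside 20.4%) and 13 lower (15.3%, beside 18.1%). The interaction was called higher for 13 (15.3%, beside 10.3%) and lower for 6 (7.06%, beside 5.67%). Among these was Tgfbr1, whose TGFβ effect was 1.83 without Pam3 and 1.26 with it (interaction -0.57, SE 0.1, adjusted p 0.000319). Another was the corepressor Tgif1 (interaction 0.52, SE 0.0866, adjusted p 8.36e-05), which TGFβ raised with Pam3 present (0.66, SE 0.0608, adjusted p 1.15e-09). Without Pam3 the TGFβ effect on Tgif1 was 0.14 (SE 0.0618, adjusted p 0.0542). It was not called but passed the threshold in 10 of 23 alternatives.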

How the data were processed

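Per the labels' protocols and the submitters' processing notes, stranded mRNA libraries were checked with FastQC 0.11.7, aligned to GRCm39 with Bowtie2 2.4.1 and counted with featureCounts of Subread 2.0.0. The annotation and strand setting of the counting are not given in the sources used here. This aligner places reads without gaps for introns, so reads across exon junctions can be lost. The deposited counts are whole reads per gene symbol, with 40847 rows, 17090 of them without a count. The deposited normalized signal equals the authors' count divided by a constant per library and served only as an alternative scaling. Reads carry no molecular identifiers, so intervals cover counting error only, and no pair of replicates agreed within sampling noise.

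Counts were filtered with filterByExpr of edgeR 4.0.16 (R 4.3.3) at a minimum count of 10, scaled with TMM and fitted with the robust quasi-likelihood test, using a mean for each of 4 groups over all 12 libraries and no other term. Contrasts (5) covered the TGFβ effect without and with Pam3, the Pam3 response without and with TGFβ, and the interaction. SE is the size of the log2 fold change divided by the square root of F. The steps were tested on simulated data. Gene positions and exon lengths come from GENCODE M39 of GRCm39, and promoters from RefSeq (GRCm38.p6).

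Alternatives were other scalings, DESeq2 1.42.0, other filters, a replicate block, fits of 6 libraries, no robust option and leaving out each library. Leaving out the ribosomal RNA rows and the share of reads on them as a covariate were chosen after seeing the data. The members and gene lists were chosen with earlier results of these data known. All members are named. Of each list, up to 3 called genes with the largest TGFβ effect without Pam3 and up to 2 with the largest interaction are named, provided each library of the higher group held 10 counts or more. Part of the genes this rule picks are not reported here. Tgfbr2 and Smad2 were added as partners of the members. For each member called with a log2 fold change of at least 1 in size for TGFβ without Pam3, the 3 tested genes of highest Pearson r with mean CPM of at least 1 are named.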

Additional observations from a re-analysis of the deposited data

Results flagged for a closer look

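TGFβ changed the size of the Pam3 response for 3 of the 10 genes, by a test of that difference itself, the interaction term of the edgeR fit on the log2 scale. It was 0.31 for Smurf1, -0.26 for Ski and -1.42 for Spsb1. Of all tested genes, 10.3% were called higher and 5.67% lower in this term. The Pam3 libraries of Spsb1 held 24, 17 and 17 counts and the untreated ones 11, 5 and 10.

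Of the 85 other pathway genes tested, the interaction was called higher for 13 (15.3%, beside 10.3% of all tested genes) and lower for 6 (7.06%, beside 5.67%). Of these, 12 are given here, most of them named because they had the largest interaction of their list, so their number follows from that choice. It was higher for the transcription factors Atf3 (2.33), Junb (1.21) and Jun (0.79), for Ppp1r15a (0.80), a phosphatase subunit that acts with SMAD7 on the type I receptor, and for Tgif1 (0.52), Cdkn1a (0.49), Hdac1 (0.31), Acvrl1 (0.30) and Tgfbi (0.24). It was lower for Id3 (-1.08), an inhibitor of helix-loop-helix factors, Tgfbr1 (-0.57) and Acvr2b (-0.55). Id3 went from 38.5 ± 2.32 to 115 ± 2.83 CPM under TGFβ when Pam3 was absent, and from 22.4 ± 0.489 to 31.7 ± 3.48 CPM when it was present (mean ± SD, n = 3). Atf3 went from 87.5 ± 5.16 to 10.0 ± 0.514 CPM and from 87.7 ± 13.6 to 50.7 ± 1.32 CPM. The calls of Acvr2b, Acvrl1, Hdac1 and Tgfbi were lost in 9, 12, 14 and 6 of 22 alternatives, and those of the other 8 held in all of them.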

How the results depend on the processing

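Over the 50 results of a member in a contrast, 1087 alternative values kept direction and call, 31 lost a call, 11 gained one and 0 reversed a called direction. The count of members called for Pam3 without TGFβ went from 3 to 1 in the fit of the 6 libraries compared, and for Pam3 with TGFβ from 5 to 3 with no filter. Leaving out 1 library gave 8 to 9 members for TGFβ without Pam3, 9 to 10 with Pam3, 2 to 3 for Pam3 without TGFβ, 3 to 5 with TGFβ (3 without untreated replicate 3, TGFβ replicate 2, or Pam3 replicates 1 or 2) and 3 to 4 for the interaction. Upper-quartile scaling gave 2477 higher and 3489 lower of all tested genes for Pam3 with TGFβ, against 3008 and 2670, and 1255 and 1097 for the interaction, against 1516 and 836.

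Counts of list genes called also changed. With upper-quartile scaling they were 3 for other receptors and SMADs in the interaction, 2 and 1 for positive regulators in TGFβ with Pam3 and Pam3 with TGFβ, and 0 for SKI partners in the interaction. With DESeq2-type size factors, 1 positive regulator was called for Pam3 with TGFβ. With no filter, 5 and 1 positive regulators were called for TGFβ and Pam3 alone, 2 DNA-binding partners and 2 genes of the SPSB1 ligase list for Pam3 alone, and 1 of the latter in the interaction. With the authors' constants, or with at least 10 counts in every library, 2 DNA-binding partners were called for Pam3 alone. For these, and for the lost calls given above, the cause was not tested beyond the setting itself.

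The labels do not say whether a replicate number marks a shared isolation. Deviations from the group means correlated from -0.174 to 0.3 between same-numbered libraries of different groups (median 0.0615 over 18 pairs, 7 above 0.1) and with a median of -0.058 between different numbers (8 of 36 above 0.1), so not every same-numbered pair was above 0.1 and the numbers were not used to pair samples. With a replicate block, 9, 10, 3, 4 and 3 members were called in the 5 contrasts, and 7562, 6736, 2751, 5714 and 2393 of all tested genes, against 7518, 6679, 2697, 5678 and 2352 without it. Depth limits Smad3 and untreated Spsb1, whose libraries held 0 to 36 and 5 to 11 counts.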

Other observations

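The genes most alike to each member across the 12 libraries were found by Pearson r of log2 CPM over 10918 genes. The libraries form 4 groups and share their depth and scaling, so r mostly follows the group means and is given without a p. Ski was most like Siglecf (r 0.996), the surface lectin that marks alveolar macrophages, which went from 26.0 CPM under Pam3 to 154 CPM under both agents, then Cd101 (r 0.995) and Acat2 (r 0.994), the latter from 56.1 to 129 CPM under TGFβ. Smad7 (r 0.997), Skil and Spsb1 (both r 0.996) each had Fzd7, a WNT receptor, among their 3 closest genes, which went from 52.8 to 127 CPM under TGFβ and from 60.9 to 127 CPM when Pam3 was present. The other 2 closest genes were Luzp1 and B4galt1 for Smad7, Cyp51 and Nsd2 for Skil, and Sowahc and Pakap for Spsb1, at r from 0.995 to 0.997.

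Pmepa1 was most like Adap2, Map3k5 and Lif (each r 0.996), and Lif, a cytokine, went from 5.08 CPM in untreated cells to 67.8 with TGFβ. Smad6 was most like Krt79 (r 0.987), Lpcat3 (0.986) and Apcdd1 (0.985), an inhibitor of WNT signalling that went from 1.65 to 46.9 CPM with TGFβ. Smad3 was most like Nacc2 (0.968), Zfp422 (0.967) and Decr1 (0.966), which like Smad3 were lowest with Pam3+TGFβ. Between members, r was from 0.94 to 1.0 among Smad6, Smad7, Smurf2, Ski, Skil, Pmepa1 and Spsb1, while Smurf1 had r from -0.96 (Ski) to -0.85 (Skil and Pmepa1) with these 7.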
